A study of Mus musculus with 24 samples.

Results

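The genes described here are 42 members of the cell cycle and DNA replication machinery, out of 55487 genes in the count tables of mouse embryonic stem cells in which the transcription factor DUX was switched on. They were chosen by symbol and matched to the tables by Ensembl gene ID. The 20 S-phase members start and copy DNA, and the 18 G2/M members condense, align and separate chromosomes. The other 4 are the checkpoint kinases Chek1 and Wee1, the licensing inhibitor Gmnn, and Fbxo5, an inhibitor of the anaphase-promoting complex. They are called brakes here as a short name, which does not mean that each of them, Fbxo5 above all, holds the cycle back. The rule that picks them uses no measured value, but the list was drawn up with earlier results of these data known. All 42 passed the filter on low counts in every fit.

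RNA was sequenced from 24 libraries of KH2 cells, a mouse embryonic stem cell line built for doxycycline-controlled transgenes. All 24 carry TRE_DUX, in which a promoter that answers to doxycycline (DOX) drives DUX, so the cells without DOX carry the transgene too. The 12 groups of 2 libraries are 6 lines, untreated or given DOX for 16 h. In 8 pLV2 libraries the treatment tag contradicts the title, and the titles were followed. The lines are WT and DUXBL-KO, and 4 lines whose names hold the tag pLV2, which the labels do not explain: TRIM24-KO, TRIM33-KO, and 2 WT lines called WT pLV2 line 1 and line 2 here. WT and DUXBL-KO were fitted apart from the 4 pLV2 lines. The labels do not say how many clones a knockout line holds or which WT pLV2 line belongs to which knockout. Cells grew on gelatin or on a layer of growth-arrested embryonic fibroblasts, and the labels do not say which library had which.

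Cells enter S phase when cyclin E with CDK2 and the E2F factors switch on the genes for DNA synthesis. Before that, ORC1, CDC6 and CDT1 load the MCM helicase onto DNA at replication origins, a step called licensing, and geminin (Gmnn) blocks CDT1 so that each origin fires once. Entry into mitosis follows when cyclin B with CDK1 and the kinases PLK1 and Aurora become active, against WEE1 and CHK1. Embryonic stem cells have a short G1 phase and express many of these genes at high levels throughout the cycle. DUX is known for turning on genes of the 2-cell embryo in stem cells.

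Gene counts per library ranged from 11784696 to 19136869. DUX transcripts (listed as Duxf3) lay at 0 to 0.096 CPM (counts scaled by effective library size) without DOX and at 1.09 to 8.32 CPM with it. The 8 markers of the 2-cell-like state all rose in each of the 6 lines, with a summed level of 0.310 to 5.21 CPM without DOX and 819 to 8247 CPM with it. Trim33 stood at 16.9 to 21.4 CPM in the libraries labelled TRIM33-KO and at 85.2 or more in the others. Trim24 stood at 120.3 to 136.8 CPM in the libraries labelled TRIM24-KO, above WT pLV2 line 1 and below line 2. Duxbl1 was at 4.97 and 11.1 CPM with DOX in the libraries labelled DUXBL-KO and at 3.23 and 8.34 in WT. Neither gene was below every WT library it is compared with, so neither checks its label. In TRIM24-KO with DOX replicate 2, 30.4% of gene counts came from 1 gene, CT010467.1, and in TRIM33-KO with DOX replicate 2 it was 12.9%. Summed fibroblast markers lay at 40.1 to 73.4 CPM without DOX and 55.6 to 87.2 with it, with 3 to 7 of the 15 markers at 0 in a library. In each of the 6 lines both libraries with DOX had a higher sum than both without, the most in TRIM24-KO, at 40.1 and 44.1 without and 72.6 and 69.6 with DOX. Of the 8 fibroblast markers tested, 3 rose with DOX in TRIM24-KO, 3 rose and 1 fell in TRIM33-KO, 1 rose in line 1, 1 rose and 1 fell in line 2, and 0 changed in WT or DUXBL-KO. Of 10 pluripotency markers 5 fell with DOX in each of line 2, TRIM24-KO and TRIM33-KO, where 1, 0 and 1 rose, while 2 rose and 2 fell in line 1 and 0 changed in WT or DUXBL-KO. Their sum was lower with DOX without overlap in each of the 4 pLV2 lines, at 4739 to 5542 CPM without and 4216 to 5364 with DOX. Of 6 trophoblast markers 1 fell in line 2 and 1 in TRIM33-KO, and their sum was lower with DOX without overlap in these lines and line 1. Of 6 endoderm markers 1 fell, in line 2. The part of these markers in the member changes was not tested.

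In the 4 pLV2 lines between 11 and 23 of the 42 members changed with DOX, each by less than 1 unit on the log2 scale. Only Orc1, the largest subunit of the origin recognition complex, rose in each of the 4 lines. Cdt1, Gmnn, Plk1 and Kif11 fell in each. Wee1, Cdk2 and Top2a fell in 3 lines, and Ccne2, Pcna and Mad2l1 rose in 3. The cyclin B genes, Cdk1 and Mki67 passed the test in none of the lines, and each of the 6 MCM genes in none or 1. Whether fewer cells were in a phase or each cell held less RNA cannot be told apart in bulk RNA.

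A member counts as risen or fallen where edgeR's quasi-likelihood test gave a Benjamini-Hochberg adjusted p under 0.05 over all genes tested. By that rule 12 members (4 rose, 8 fell) changed in WT pLV2 line 1, where 16.1% of all genes tested did, 9.96% upward and 6.12% downward. In WT pLV2 line 2, 13 changed (2 rose, 11 fell), against 26.5% of all genes, 12.7% upward and 13.8% downward. In the line labelled TRIM24-KO, 11 changed (6 rose, 5 fell), against 16.3%, of which 11.4% upward and 4.88% downward. In the line labelled TRIM33-KO, 23 changed (8 rose, 15 fell), against 36.4%, with 16.4% upward and 20% downward. The members' shares were thus 28.6%, 31.0%, 26.2% and 54.8%. With other size factors (RLE) the split in line 2 became 5 risen and 6 fallen, and in TRIM33-KO 9 and 12. Without CT010467.1 the TRIM24-KO split became 5 risen and 7 fallen, and with DESeq2 4 and 6. Fitting only the groups compared gave 22 called members in line 1 (52.4%, against 26.2% of all genes) and 5 in line 2 (11.9%, against 16.6%), and DESeq2 gave 8 in line 2 (19.0%, against 19.5%). Leaving out any 1 library of line 1 gave 4 to 6 called members (9.52% to 14.3%), with 8.17% to 10% of all genes. Leaving out replicate 1 with DOX gave 8 in line 2 (19.0%, with 15.3% of all genes) and 13 in TRIM33-KO (31.0%, with 23.1%). In TRIM24-KO there were 7 without replicate 1 without DOX (16.7%, with 10.9% of all genes), and 6 without replicate 2 of either arm (14.3%, with 10.6% without and 10.2% with DOX). Over the 4 lines, 18 members passed in none, 8 rose in at least 1, 16 fell in at least 1, and 0 did both. Of all genes 56.7% passed in none, 19.5% only rose, 23.6% only fell and 0.144% did both, beside 42.9%, 19.0%, 38.1% and 0.0% of the members. Nothing in the labels says that the replicates came from separate cultures, so the p-values measure the spread between these libraries only.

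Counted by libraries that did not overlap, whatever the test, 13 members were higher and 26 lower with DOX in WT pLV2 line 1, where 28.5% and 33.5% of all genes were. In WT pLV2 line 2 it was 9 and 20, against 24.9% and 35.6%. In TRIM24-KO it was 11 and 17, against 28.0% and 26.6%, and in TRIM33-KO 9 and 23, against 28.2% and 40.7%. The lower members of line 1 included all 6 MCM genes, whose changes did not pass the test there.

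**Figure D1:**
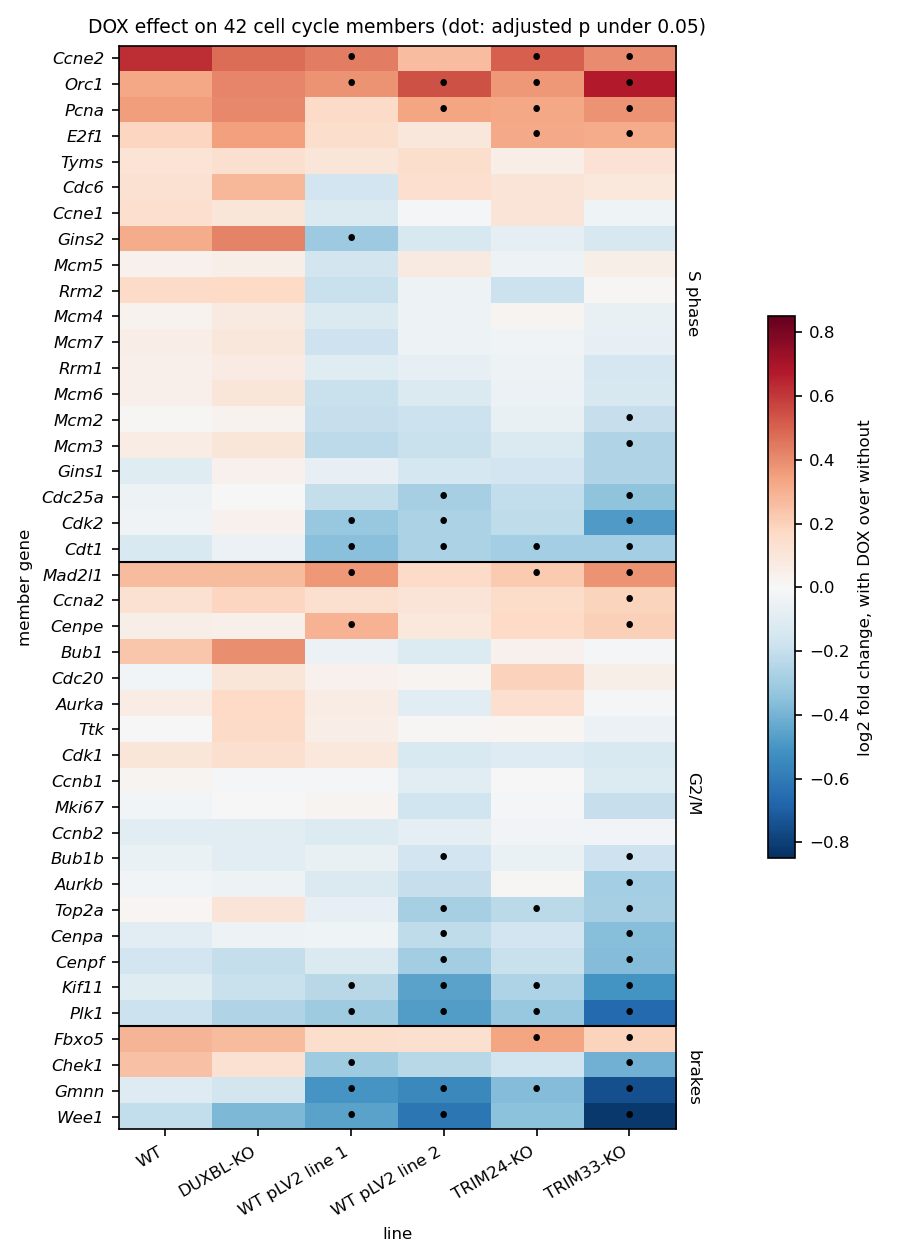
Log2 fold change with DOX over without DOX (colour) for the 42 members (vertical axis, by class) in the 6 lines (horizontal axis), with a dot where the adjusted p was under 0.05. Orc1 carries a dot in all 4 pLV2 lines and so do Cdt1, Gmnn, Plk1 and Kif11, while WT and DUXBL-KO carry 0 dots.

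Orc1 (chr4:108579423-108614833 in GRCm38, plus strand) was measured at 63.9 and 67.4 without and 81.3 and 90.1 with DOX in WT pLV2 line 1 and at 74.3 and 70.5 without and 107 and 103 with DOX in line 2, all in CPM, as are the levels of the other members. It was at 60.4 and 59.4 without and 75.5 and 79.6 with DOX in the TRIM24-KO line and at 69.02 and 72.1 without and 113 and 112 with DOX in the TRIM33-KO line. In each of the 4 lines both libraries with DOX were above both without. The log2 fold changes were 0.38 (SE 0.066, adjusted p = 0.000542), 0.54 (SE 0.065, adjusted p = 7.56e-06), 0.37 (SE 0.067, adjusted p = 0.000793) and 0.68 (SE 0.065, adjusted p = 3.88e-07) in that order. The share of all genes that rose in all 4 lines was 7.27%. The other licensing loader, Cdc6, ranged over 59.8 to 105 CPM without DOX and 56.4 to 111 with it and passed in none of the 4 lines.

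Cdt1 (chr8:122568015-122573554, plus strand), which brings the helicase to the origin, went the other way. It was at 162 and 163 without and 129 and 124 with DOX in WT pLV2 line 1 and at 171 and 146 without and 137 and 127 with DOX in line 2. The TRIM24-KO line had 155 and 152 without and 136 and 116 with DOX and the TRIM33-KO line 182 and 168 without and 141 and 145 with DOX. In each line both libraries with DOX lay below both without. The fold changes were -0.36 (SE 0.084, adjusted p = 0.00674), -0.27 (SE 0.083, adjusted p = 0.0252), -0.29 (SE 0.084, adjusted p = 0.0266) and -0.29 (SE 0.083, adjusted p = 0.0118).

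Gmnn (chr13:24751845-24761923, minus strand) encodes geminin, the inhibitor of CDT1, and fell together with it. It was at 49.3 and 54.3 without and 37.8 and 35.3 with DOX in WT pLV2 line 1, and at 53.6 and 50.9 without and 35.1 and 36.6 with DOX in line 2. It was at 47.9 and 47.6 without and 38.01 and 35.7 with DOX in the TRIM24-KO line, and at 56.00 and 49.6 without and 30.7 and 32.2 with DOX in the TRIM33-KO line. The libraries with and without DOX did not overlap in any of the 4 lines. The log2 fold changes were -0.50 (SE 0.084, adjusted p = 0.000387), -0.54 (SE 0.083, adjusted p = 0.000105), -0.37 (SE 0.085, adjusted p = 0.00584) and -0.75 (SE 0.086, adjusted p = 3.11e-06).

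Plk1 (chr7:122159439-122169873, plus strand) is the kinase that drives centrosome maturation and mitotic entry. Its libraries held 152 and 151 without and 123 and 123 with DOX in WT pLV2 line 1, 164 and 166 without and 118 and 119.8 with DOX in line 2, 143 and 148 without and 123 and 109.7 with DOX in the TRIM24-KO line and 175 and 188 without and 112 and 117 with DOX in the TRIM33-KO line. All 8 libraries with DOX lay below the libraries of their own line without it. The log2 fold changes were -0.30 (SE 0.064, adjusted p = 0.00358), -0.47 (SE 0.064, adjusted p = 2.93e-05), -0.32 (SE 0.065, adjusted p = 0.00194) and -0.66 (SE 0.065, adjusted p = 4.35e-07). Kif11 (chr19:37376403-37421859, plus strand) is the motor that pushes spindle poles apart. It was at 219 and 220.3 without and 187 and 185 with DOX in WT pLV2 line 1, 217 and 205 without and 152 and 155 with DOX in line 2, 212 and 213 without and 175 and 179 with DOX in the TRIM24-KO line and 214 and 218 without and 146 and 158 with DOX in the TRIM33-KO line, again without overlap. Its log2 fold changes were -0.24 (SE 0.06, adjusted p = 0.0113), -0.46 (SE 0.06, adjusted p = 2.14e-05), -0.26 (SE 0.06, adjusted p = 0.00557) and -0.51 (SE 0.061, adjusted p = 4.96e-06).

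The share of all genes that fell in all 4 lines was 2.04%. Leaving out either library of WT pLV2 line 1 without DOX left only Gmnn in that set, leaving out that line's replicate 2 with DOX left Gmnn and Plk1, and leaving out TRIM24-KO with DOX replicate 2 left Kif11 and Plk1. With RLE factors and with DESeq2 the set held 4 members too, but Wee1 in place of Cdt1. Orc1 kept its call in all 4 lines under every alternative and with each library left out. By the same measure Gmnn, Mad2l1 and Orc1 kept theirs in line 1, and Gmnn, Kif11, Orc1 and Plk1 in line 2. In TRIM24-KO it was Fbxo5, Orc1 and Plk1, and in TRIM33-KO 12 of the 23 called members, Wee1, Gmnn, Plk1, Kif11, Cdk2 and Chek1 among them. Every other call was ended by some left-out library or other setting.

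Wee1 (chr7:110122046-110143286, plus strand) encodes the kinase that keeps CDK1 inactive. It was at 83.7 and 90.9 without and 63.2 and 64.01 with DOX in WT pLV2 line 1, 66.01 and 76.00 without and 38.6 and 53.8 with DOX in line 2, 64.4 and 62.1 without and 50.8 and 48.4 with DOX in the TRIM24-KO line and 67.5 and 72.2 without and 37.9 and 41.4 with DOX in the TRIM33-KO line. The libraries did not overlap in any of the 4 lines, and the test was passed in lines 1 and 2 and TRIM33-KO. The log2 fold changes were -0.46 (SE 0.11, adjusted p = 0.00877), -0.62 (SE 0.11, adjusted p = 0.000626), -0.35 (SE 0.12, adjusted p = 0.0514) and -0.82 (SE 0.12, adjusted p = 3.69e-05). Chek1, the checkpoint kinase, fell in WT pLV2 line 1 (-0.30) and the TRIM33-KO line (-0.41). Fbxo5, an inhibitor of the anaphase-promoting complex, rose in the TRIM24-KO line (0.33, SE 0.068, adjusted p = 0.00231) and the TRIM33-KO line (0.19, SE 0.067, adjusted p = 0.0339).

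**Figure D2:**
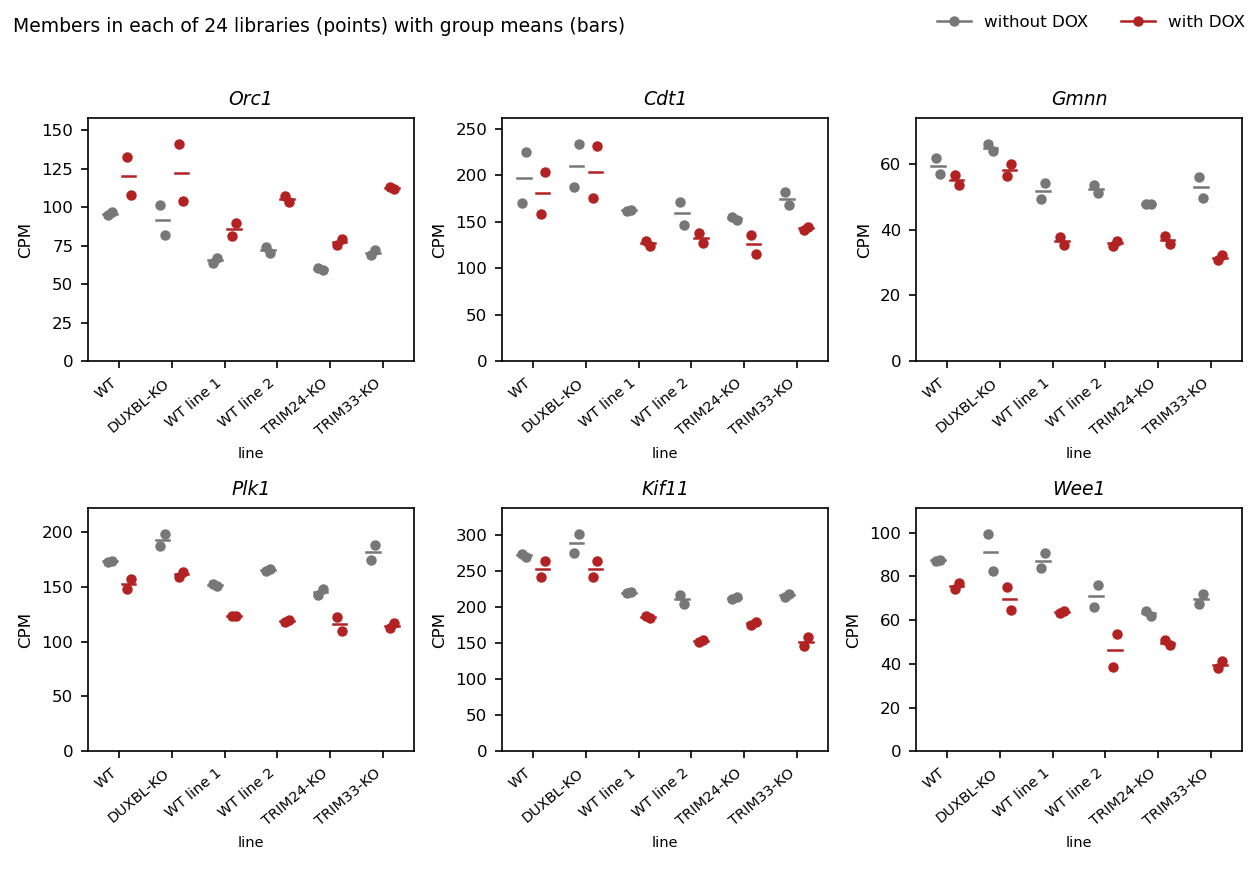
CPM (vertical axis, from 0) of Orc1, Cdt1, Gmnn, Plk1, Kif11 and Wee1 in each library (points) of the 6 lines (horizontal axis), with group means as bars. In the 4 pLV2 lines the points with DOX lie above those without for Orc1 and below them for the other members.

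The sequences upstream of 4 of these start sites are shown because these members changed in all 4 pLV2 lines and because E2F sites and the pair of CHR and CCAAT boxes are the textbook promoter elements of S-phase and G2/M genes. They are the 250 bases before the RefSeq start on the plus strand of GRCm38.p6, chosen after their values were seen, with matches in capitals. Plk1 spans chr7:122159185-122159434, Kif11 chr19:37376132-37376381, Cdt1 chr8:122567765-122568014 and Orc1 chr4:108579204-108579453.
Plk1: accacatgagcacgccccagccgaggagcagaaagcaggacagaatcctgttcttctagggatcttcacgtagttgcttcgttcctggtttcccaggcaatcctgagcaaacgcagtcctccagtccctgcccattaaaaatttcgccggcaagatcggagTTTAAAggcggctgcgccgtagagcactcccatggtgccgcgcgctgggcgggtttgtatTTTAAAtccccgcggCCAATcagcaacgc
Kif11: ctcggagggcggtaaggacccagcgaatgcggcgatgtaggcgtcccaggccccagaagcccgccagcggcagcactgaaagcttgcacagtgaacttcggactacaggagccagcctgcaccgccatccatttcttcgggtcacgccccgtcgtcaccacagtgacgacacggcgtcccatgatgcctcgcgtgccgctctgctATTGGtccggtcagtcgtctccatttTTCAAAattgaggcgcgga
Cdt1: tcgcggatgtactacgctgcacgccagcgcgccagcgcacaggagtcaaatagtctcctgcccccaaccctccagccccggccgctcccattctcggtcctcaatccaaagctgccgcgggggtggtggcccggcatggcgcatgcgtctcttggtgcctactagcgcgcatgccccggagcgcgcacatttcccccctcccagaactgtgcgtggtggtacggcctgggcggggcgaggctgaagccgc
Orc1: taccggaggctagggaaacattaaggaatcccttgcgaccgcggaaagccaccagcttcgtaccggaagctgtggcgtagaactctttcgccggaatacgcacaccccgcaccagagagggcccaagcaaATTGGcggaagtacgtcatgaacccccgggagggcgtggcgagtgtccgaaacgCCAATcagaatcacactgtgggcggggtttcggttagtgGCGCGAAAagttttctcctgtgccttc
Searched on both strands were E2F (TTTCCCGC, TTTGGCGC, TTTCGCGC or TTTGCCGC), CHR (TTTGAA or TTTAAA) and CCAAT. Plk1 holds 2 CHR matches and 1 CCAAT, and Kif11 holds 1 of each on the minus strand. Orc1 holds 1 E2F match and 2 CCAAT. The Cdt1 window holds none of these letters, and Gmnn and Wee1 had no entry.

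Of the 42 members, 34 had a promoter entry in the RefSeq table. E2F letters stood in 7 of 16 S-phase promoters (43.8%) and in 1 of 16 G2/M promoters (6.25%), against 1.91% of all 27025 promoters. CHR letters stood in 3 of 16 S-phase (18.8%) and 10 of 16 G2/M promoters (62.5%), against 25.5% of all. CCAAT stood in 11 of 16 (68.8%) and 15 of 16 (93.8%), against 34.5%. Both CHR and CCAAT stood in 2 S-phase and 10 G2/M promoters, against 9% of all. Members with both boxes include Plk1, Kif11 and Top2a, but also Ccnb1, Ccnb2 and Cdk1, which passed the DOX test in none of the 4 lines. A match describes the letters only and does not show a bound site.

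Among cyclin E, its kinase and its phosphatase, Ccne2 rose while Cdk2 fell. Ccne2 was at 16.1 and 12.2 without and 18.5 and 19.7 with DOX in WT pLV2 line 1, 23.99 and 22.3 without and 29.6 and 26.2 with DOX in line 2, 20.5 and 18.6 without and 26.5 and 29.4 with DOX in the TRIM24-KO line and 19.7 and 20.1 without and 29.2 and 23.2 with DOX in the TRIM33-KO line. The libraries with DOX were higher in every line, and the test was passed in all but line 2, with log2 fold changes of 0.44 (SE 0.14, adjusted p = 0.0398), 0.27 (SE 0.13, adjusted p = 0.137), 0.51 (SE 0.13, adjusted p = 0.013) and 0.40 (SE 0.13, adjusted p = 0.0233). Each of the 3 calls was lost without that line's replicate 2 without DOX. It was also lost without either library with DOX in line 1, without replicate 2 with DOX in TRIM24-KO, and without replicate 1 of either arm in TRIM33-KO. A stretch of 609 bases of Ccne2 exon are shared with Ints8 on the opposite strand. Ccne1, the other cyclin E gene, ranged over 84.05 to 105 CPM without and 81.1 to 102 with DOX in WT pLV2 line 1, line 2 and the TRIM33-KO line, and passed in none of the 4 lines. Cdk2 fell in WT pLV2 line 1 (-0.32, SE 0.088, adjusted p = 0.0188), line 2 (-0.27, SE 0.089, adjusted p = 0.0343) and the TRIM33-KO line (-0.48, SE 0.09, adjusted p = 0.000494). Cdc25a, the phosphatase that activates CDK2, fell in line 2 (-0.28) and the TRIM33-KO line (-0.34).

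Pcna, the sliding clamp of the DNA polymerases, was at 189.8 and 187 without and 209.7 and 211 with DOX in WT pLV2 line 1, 188 and 196 without and 256 and 227 with DOX in line 2, 186 and 179 without and 232 and 227 with DOX in the TRIM24-KO line and 189.5 and 195 without and 266 and 235 with DOX in the TRIM33-KO line. Every library with DOX was above the libraries of its line without it. The change passed in line 2 (0.33, SE 0.071, adjusted p = 0.00213), the TRIM24-KO line (0.33, SE 0.072, adjusted p = 0.00376) and the TRIM33-KO line (0.38, SE 0.071, adjusted p = 0.000512), and not in line 1 (0.16, SE 0.071, adjusted p = 0.149). It was lost in line 2 without replicate 1 with DOX and in TRIM24-KO without replicate 2 without DOX. E2f1, an activator of S-phase genes, rose in the TRIM24-KO (0.32, SE 0.091, adjusted p = 0.023) and TRIM33-KO lines (0.32, SE 0.093, adjusted p = 0.0137).

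The 6 MCM genes encode the ring that unwinds DNA. Of their 24 tests in the pLV2 lines, 2 passed, both in the TRIM33-KO line: Mcm3 at -0.25 (SE 0.089, adjusted p = 0.0358) and Mcm2 at -0.20 (SE 0.071, adjusted p = 0.0386). Mcm5 stood at 333 and 314 without and 286 and 295 with DOX in WT pLV2 line 1, 502 and 411 without and 523 and 439 with DOX in line 2, 279 and 278 without and 281 and 258 with DOX in the TRIM24-KO line and 515 and 498 without and 541 and 508 with DOX in the TRIM33-KO line. Its libraries with and without DOX overlapped in line 2, TRIM24-KO and TRIM33-KO. Gins2, a helicase cofactor, fell in WT pLV2 line 1 (-0.31, SE 0.10, adjusted p = 0.0455), but shares 2758 exon bases with Gse1 on the opposite strand. The nucleotide supply genes Rrm1, Rrm2 and Tyms, and the helicase cofactor gene Gins1, passed in no line.

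Further G2/M members fell in some of the lines. Top2a, the topoisomerase that untangles sister chromatids, was at 985 and 968 without and 943 and 917 with DOX in WT pLV2 line 1, 1423 and 1453 without and 1147 and 1217 with DOX in line 2, 748 and 759 without and 638 and 649 with DOX in the TRIM24-KO line and 1411 and 1331 without and 1118 and 1141 with DOX in the TRIM33-KO line. It did not overlap between arms in any line and fell in line 2 (-0.28, SE 0.062, adjusted p = 0.00264), the TRIM24-KO line (-0.23, SE 0.062, adjusted p = 0.0171) and the TRIM33-KO line (-0.28, SE 0.062, adjusted p = 0.00197). Fitting only the compared groups ended these 3 calls, and the one in TRIM24-KO was also lost without replicate 1 or 2 without DOX or replicate 2 with DOX. Cenpf, of the kinetochore, fell in line 2 (-0.29) and TRIM33-KO (-0.37), and so did Cenpa, the centromeric histone (-0.21 and -0.36), and Bub1b, of the spindle checkpoint (-0.16 and -0.17). Aurkb, the kinase of the chromosomal passenger complex, fell in the TRIM33-KO line (-0.29, SE 0.071, adjusted p = 0.0049).

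Some G2/M members rose. Mad2l1, the spindle checkpoint protein that holds back CDC20, was at 32.2 and 32.9 without and 42.01 and 42.1 with DOX in WT pLV2 line 1, 39.2 and 41.8 without and 46.7 and 44.1 with DOX in line 2, 93.3 and 87.7 without and 102 and 109.5 with DOX in the TRIM24-KO line and 37.6 and 37.7 without and 49.1 and 49.2 with DOX in the TRIM33-KO line. The libraries with DOX were higher in all 4 lines. The rise passed in line 1 (0.37, SE 0.072, adjusted p = 0.00172), the TRIM24-KO line (0.22, SE 0.065, adjusted p = 0.026) and the TRIM33-KO line (0.38, SE 0.07, adjusted p = 0.000439), and not in line 2 (0.17, SE 0.069, adjusted p = 0.0922), where it passed with RLE factors. Cenpe, a kinetochore motor, rose in line 1 (0.29, SE 0.072, adjusted p = 0.00901) and the TRIM33-KO line (0.20, SE 0.072, adjusted p = 0.0372). Ccna2, cyclin A, ranged over 168 to 235 CPM without and 182 to 268 with DOX and passed only in the TRIM33-KO line (0.19, SE 0.068, adjusted p = 0.0405), a call lost without a filter on low counts and without 3 of the 4 libraries.

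Cyclin B1, CDK1 and the proliferation antigen Ki-67 (Mki67) passed the test in none of the 4 lines. Ccnb1 was at 253 and 255 without and 256 and 246 with DOX in WT pLV2 line 1, 243 and 247 without and 232 and 229 with DOX in line 2, 231 and 228 without and 229 and 228 with DOX in the TRIM24-KO line and 249 and 245 without and 232 and 223 with DOX in the TRIM33-KO line, with log2 fold changes of -0.019, -0.089, -0.0066 and -0.12 (SE 0.057 in line 1). Cdk1 was at 126 and 136 without and 139 and 139.5 with DOX in line 1, 121 and 118 without and 111 and 107 with DOX in line 2, 132 and 124 without and 121 and 116 with DOX in TRIM24-KO and 125 and 112 without and 112 and 105 with DOX in TRIM33-KO. Its libraries lay higher with DOX in line 1, lower in line 2 and TRIM24-KO, and overlapped in TRIM33-KO, and none of these differences passed. Mki67 ranged over 458 to 591 CPM without and 435 to 515 with DOX, and its log2 fold changes were 0.024, -0.17, -0.017 and -0.20 (SE 0.077 in line 1). Ccnb2, Aurka, Bub1, Ttk and Cdc20 also passed in no line. The median standard error over the members was 0.072 in line 1. Changes well above it could go uncalled. The smallest called change of a member was 0.24 in line 1 and 0.22 in TRIM24-KO, while uncalled ones reached 0.22 and 0.35.

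S-phase and G2/M members were compared as classes by their mean log2 CPM in each library. The S-phase level minus the G2/M level was -0.66 ± 0.025 (SD, n = 2) without and -0.74 ± 0.0067 with DOX in WT pLV2 line 1, a difference of -0.079. In WT pLV2 line 2 it was -0.65 ± 0.019 without and -0.53 ± 0.038 with DOX, a difference of 0.12. In the TRIM33-KO line it was -0.67 ± 0.014 and -0.55 ± 0.052, a difference of 0.11. In the TRIM24-KO line it was -0.57 ± 0.0197 and -0.53 ± 0.054, and the libraries overlapped. The libraries did not overlap in the other 3 pLV2 lines, so line 1 and the pair of line 2 and TRIM33-KO moved in opposite directions. In line 1 the S-phase mean differed by -0.084 with DOX and the G2/M mean by -0.0046. In line 2 and TRIM33-KO the G2/M mean differed by -0.13 in each, with all libraries lower, while the S-phase libraries overlapped. No test was made on these class means.

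By medians of the log2 fold changes, the S-phase members stood at -0.16, -0.04, -0.04 and -0.07 in WT pLV2 line 1, line 2, TRIM24-KO and TRIM33-KO. The G2/M members stood at -0.03, -0.12, -0.01 and -0.12 and the 4 brakes at -0.38, -0.39, -0.26 and -0.58. All genes tested had medians of -0.03, -0.07, 0.00 and -0.09. In the TRIM24-KO line the S-phase mean (0.02) and median differ in sign, and so does the S-phase minus G2/M difference by means and by medians. Of the brakes, Chek1, Wee1 and Gmnn had negative and Fbxo5 positive values in each of the 4 lines. In WT and DUXBL-KO the S-phase medians were 0.06 and 0.10 and the G2/M medians -0.01 and 0.02, with -0.01 over all genes in both, and the WT G2/M mean was 0.01.

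**Figure D3:**
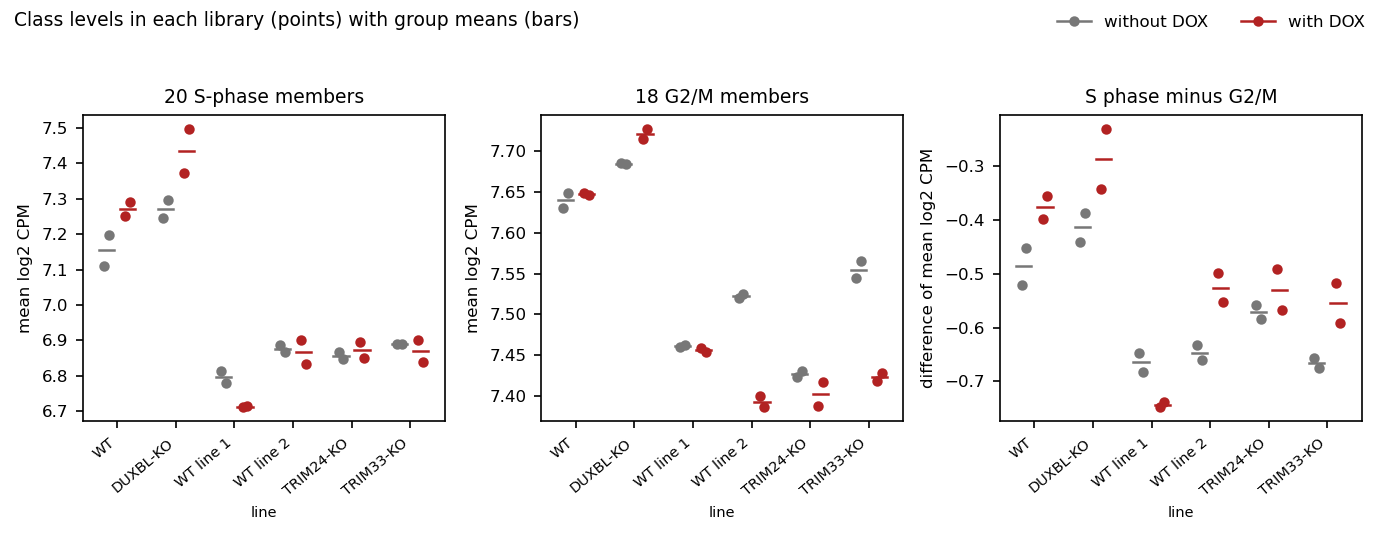
Mean log2 CPM of the S-phase members, of the G2/M members and their difference (vertical axes, not from 0) in each library (points) of the 6 lines (horizontal axis), with group means as bars. The difference is higher with DOX in WT pLV2 line 2 and TRIM33-KO (by 0.12 and 0.11) and lower in line 1 (by -0.079).

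In WT and DUXBL-KO without the pLV2 tag, 0 members passed edgeR's test for DOX, against 2.98% and 4.92% of all genes (2.86% and 4.52% upward, 0.116% and 0.399% downward). At an unadjusted p under 0.05 there were 6 in WT (14.3%, against 10.8% of all genes) and 7 in DUXBL-KO (16.7%, against 14%), and DESeq2 called 0 and 1, against 4.21% and 5.70%. Some settings ended the 0. Without a filter on low counts 1 member passed in each line (2.38%, against 3.14% and 4.35% of all genes). With the replicate number as a block 2 passed in WT (4.76%, against 5.14%) and 4 in DUXBL-KO (9.52%, against 8.50%). With only the groups compared, or without 1 library of the line, 0 members passed in either line. The share of all genes in WT then became 0.00591% with only the groups compared, 0.615% and 0.0105% without replicate 1 or 2 without DOX, and 2.07% and 3.39% without replicate 1 or 2 with DOX. In DUXBL-KO it was 4.34% with only the groups compared and 2.58% to 3.04% without 1 library. Without overlap, 14 members were higher and 6 lower in WT, against 21.1% and 20.1% of all genes, and 21 and 7 in DUXBL-KO, against 23.1% and 19.7%. Standard errors were larger here, with a median over members of 0.094. Ccne2 had the largest of the WT values at 0.63 (SE 0.19, adjusted p = 0.215), from 20.95 and 21.8 without and 29.1 and 37.1 with DOX in WT and 31.8 and 36.3 without and 39.6 and 55.01 with DOX in DUXBL-KO. Pcna was at 244 and 269.9 without and 325 and 330.3 with DOX in WT (0.35, SE 0.12, adjusted p = 0.269) and at 300.3 and 321 without and 371 and 455 with DOX in DUXBL-KO (0.41, SE 0.12, adjusted p = 0.127), higher with DOX in both without overlap. Bub1, a spindle checkpoint kinase, was at 143 and 129 without and 175 and 182 with DOX in DUXBL-KO (0.39, SE 0.093, adjusted p = 0.062).

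The 5 members that moved in all 4 pLV2 lines had these values in the other 2 lines. Orc1 was at 95.1 and 96.8 without and 133 and 108 with DOX in WT and 102 and 82.03 without and 141 and 104 with DOX in DUXBL-KO, higher with DOX without overlap, with log2 fold changes of 0.33 (SE 0.18, adjusted p = 0.619) and 0.42 (SE 0.18, adjusted p = 0.359). Plk1 was at 173 and 174 without and 148 and 157 with DOX in WT (-0.18, SE 0.083) and 187 and 198 without and 159 and 163 with DOX in DUXBL-KO (-0.26, SE 0.082, adjusted p = 0.188), lower with DOX in both. Kif11 was at 274 and 269.7 without and 242 and 263 with DOX in WT and 275 and 301 without and 241 and 264 with DOX in DUXBL-KO, also lower. Gmnn was at 61.7 and 56.9 without and 56.5 and 53.6 with DOX in WT and 65.97 and 63.7 without and 56.4 and 59.98 with DOX in DUXBL-KO, lower by less than in the pLV2 lines, a difference between sets that was not tested. Cdt1 was at 170.1 and 225 without and 158 and 203 with DOX in WT and 187 and 234 without and 175 and 231 with DOX in DUXBL-KO, where the arms overlapped. The S-phase minus G2/M level differed by 0.11 in WT and by 0.13 in DUXBL-KO, higher with DOX without overlap, and the G2/M mean moved by 0.0074 and 0.036. DUX transcripts reached 1.09 and 1.38 CPM with DOX in WT, 2.84 and 4.93 in DUXBL-KO, and 3.05 to 8.32 in the pLV2 lines, and the part of that level in these values was not tested.

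Whether a knockout altered the DOX effect was tested as an interaction, the DOX effect of the knockout line minus that of WT for DUXBL-KO and minus the mean of both WT pLV2 lines for TRIM24-KO and TRIM33-KO. No member passed edgeR's test for DUXBL-KO, TRIM24-KO or TRIM33-KO, nor for WT pLV2 line 2 against line 1. The share of all genes called was 0.0%, 0.387%, 0.553% and 0.243%. Against WT pLV2 line 1 alone it was 0.199% for TRIM24-KO and 1.55% for TRIM33-KO, against line 2 alone 0.337% and 0.0%, with 0 members in each. At an unadjusted p under 0.05 there were 0, 1, 5 and 4 members (0.0%, 2.38%, 11.9% and 9.52%), against 0.537%, 8.49%, 9.74% and 7.66% of all genes. DESeq2 called 0 members in each, against 0.00554%, 0.548%, 1.08% and 0.620% of all genes. The 5 for TRIM33-KO were Plk1 (-0.28, SE 0.079, adjusted p = 0.181), Orc1 (0.21, SE 0.08, adjusted p = 0.359), Cenpa (-0.24), Kif11 (-0.16) and Gmnn (-0.23). The 4 for line 2 were Cdc6 (0.30), Kif11 (-0.22), Top2a (-0.21) and Cdk1 (-0.22), and the 1 for TRIM24-KO was Fbxo5 (0.19).

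Members also differed between lines. In the libraries labelled TRIM24-KO, Mad2l1, Ccne1, Mcm2 and Cdc20 were higher and Top2a and Cenpf lower than in the WT pLV2 lines, both without and with DOX. Without DOX 24 members differed from the mean of both WT pLV2 lines (7 higher, 17 lower), where 43.2% of all genes did, 20.9% higher and 22.4% lower. With DESeq2 the split was 7 and 10. Without replicate 2 of line 1, or either TRIM24-KO library, there were 15 (35.7%), with 36.4%, 28.7% and 32.3% of all genes in these fits. With DOX 16 differed (8 higher, 8 lower), against 40.6%, of which 22.7% higher and 18% lower. Endoderm markers moved with this label too: 3 of 6 were higher, and their sum was 14.8 and 15.0 CPM without DOX, against 3.57 to 6.54 in the WT pLV2 lines. Of 6 trophoblast markers 4 were higher and 1 lower. Fibroblast markers summed to 40.1 and 44.1 CPM without DOX, against 64.9 to 73.4 in the WT pLV2 lines, with 2 of 8 higher and 4 lower. Of 10 pluripotency markers 3 were higher and 5 lower without DOX, and with DOX 4 and 4, when 3 of the 8 markers of the 2-cell-like state were higher and 3 lower. The part of these markers in the member differences was not tested. These comparisons share the WT pLV2 libraries with those of TRIM33-KO.

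Mad2l1 was at 93.3 and 87.7 CPM without DOX in the TRIM24-KO libraries, against 32.2 and 32.9 in WT pLV2 line 1 and 39.2 and 41.8 in line 2. The difference was 1.32 (SE 0.056, adjusted p = 3.60e-11) without and 1.28 (SE 0.058, adjusted p = 6.51e-11) with DOX. Ccne1 was at 192 and 177, against 94.1 and 84.05 and 99.6 and 102, a difference of 0.96 (SE 0.06, adjusted p = 2.37e-09), and 1.14 (SE 0.061, adjusted p = 4.41e-10) with DOX. In both genes the TRIM24-KO libraries lay above all WT pLV2 libraries. The level of Ccne1 was not particular to TRIM24-KO. In the lines without the pLV2 tag, fitted apart, Ccne1 without DOX was at 183 and 175 CPM in WT and 170 and 206 in DUXBL-KO. Mad2l1 was at 48.6 and 48.1 in WT and 55.6 and 52.7 in DUXBL-KO, below the TRIM24-KO libraries. Mcm2 was at 356 and 329.8, against 195 and 203 and 167 and 157 (0.93, SE 0.058, adjusted p = 2.53e-09), while Mcm5 (-0.46) and Mcm6 (-0.54) of the same ring were lower against the mean of the lines but, against line 1 alone, did not pass the test. Top2a was at 748 and 759, against 985 and 968 and 1423 and 1453 (-0.65, SE 0.055, adjusted p = 8.11e-08). Cenpf was at 257 and 269, against 343 and 345 and 631 and 516 (-0.76, SE 0.076, adjusted p = 6.67e-07). Without DOX 20 members differed against line 1 alone (47.6%, with 33.7% of all genes) and 22 against line 2 alone (52.4%, with 48.0%).

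The WT pLV2 lines differed from each other as well. Line 2 against line 1 without DOX gave 18 members (10 higher, 8 lower), where 38.1% of all genes differed, 18.9% higher and 19.2% lower. Markers moved here too: of the 8 fibroblast markers tested 4 were higher and 1 lower in line 2, of 10 pluripotency markers 3 and 5, of 6 trophoblast markers 1 and 2, of 6 endoderm markers 1 and 0, and of 8 markers of the 2-cell-like state 0 and 2. Their part in the member differences was not tested. Top2a (0.56, SE 0.062, adjusted p = 3.49e-06), Cenpf (0.74, SE 0.085, adjusted p = 5.44e-06), Mcm6 (0.73, SE 0.088, adjusted p = 7.51e-06) and Cdc6 (0.56) were higher in line 2. Mcm7 (-0.39, SE 0.059, adjusted p = 6.77e-05) and Tyms, the thymidylate synthase (-0.43, SE 0.068, adjusted p = 9.92e-05), were lower. Mcm6 was at 313 and 318 CPM in line 1 and at 571 and 479 in line 2.

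The TRIM33-KO comparison turned on which WT line it was made with. Against the mean of both lines, 11 members differed without DOX (8 higher, 3 lower) and 13 with DOX (6 higher, 7 lower), where 23.6% (12.6% higher, 10.9% lower) and 26.6% (15.1% higher, 11.5% lower) of all genes did. Without DOX 3 of the 8 tested fibroblast markers were higher, and 2 of 10 pluripotency markers were higher and 3 lower. With DOX all 8 markers of the 2-cell-like state were higher, at a sum of 7698 and 8247 CPM against 1477 to 5742 in the WT pLV2 lines, with 2 fibroblast markers and 1 trophoblast marker higher, and 2 pluripotency markers higher and 6 lower. The part of these markers in the member differences was not tested. Against line 1 alone there were 22 and 23 members (52.4% and 54.8%), with 40.7% and 42.9% of all genes. Against line 2 alone there were 0 and 0, with 1.51% and 3.40% of all genes. Leaving out TRIM33-KO replicate 2 without DOX, or replicate 1 with DOX, gave 7 in its comparison (16.7%, against 10.8% and 14.1% of all genes). Mcm6 was at 570.4 and 555 CPM in the TRIM33-KO libraries without DOX and Cenpf at 609.6 and 622, beside 631 and 516 in line 2 and 343 and 345 in line 1. With RLE factors the split with DOX became 11 higher and 4 lower, and with DESeq2 it became 9 and 4. Between DUXBL-KO and WT 0 members differed without DOX and 0 with DOX by edgeR's test, against 0.0388% and 0.072% of all genes (0.0% and 0.0166% higher, 0.0388% and 0.0554% lower). DESeq2 also called 0 and 0, against 0.980% and 0.952% of all genes. At an unadjusted p under 0.05 there were 5 in each (11.9%), against 8.91% of all genes without and 10.1% with DOX.

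**Figure D4:**
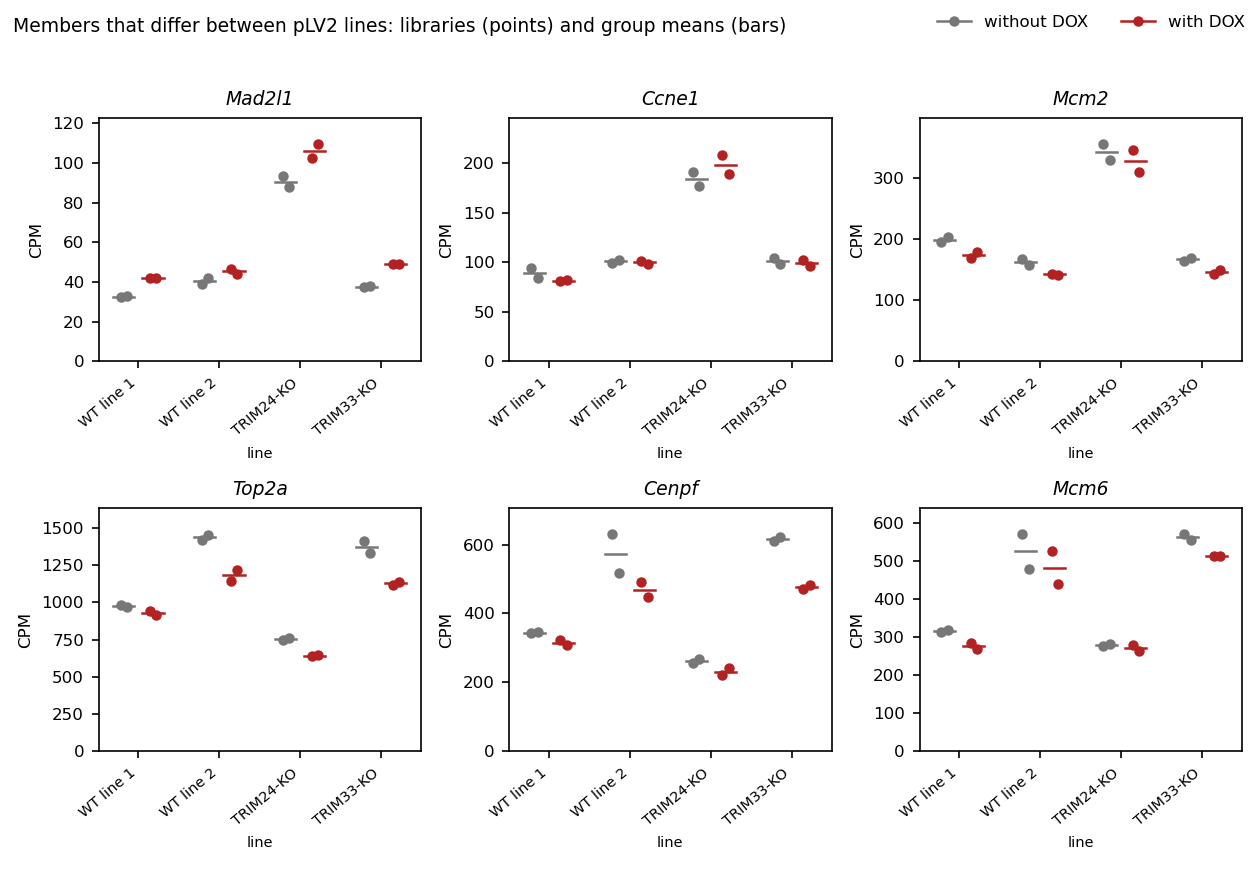
CPM (vertical axis, from 0) of Mad2l1, Ccne1, Mcm2, Top2a, Cenpf and Mcm6 in each library (points) of the 4 pLV2 lines (horizontal axis), with group means as bars. The TRIM24-KO points stand apart for Mad2l1, Ccne1 and Mcm2, and the TRIM33-KO points lie near those of WT line 2 for Top2a, Cenpf and Mcm6.

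Levels of different genes were compared per kilobase of exon. Without DOX, over 12 libraries, Top2a had the highest median at 146 CPM per kb (range 82.99 to 162), followed by Mcm5 at 119.5 (69.6 to 158) and Cdc20 at 116 (90.7 to 159). These ranges overlapped, and the order, which pools the 6 lines, differed between them. In TRIM24-KO the mean of Top2a was 83.6 CPM per kb, below Cdc20 at 147.9, Rrm2 at 108.5 and Mcm3 at 90.2. The lowest were Mad2l1 at 5.36 (3.84 to 11.1), Ccne2 at 5.93 and Tyms at 9.43. These ranks depend on the length used, all annotated exons of a gene joined: 8390 bp for Mad2l1, 6089 for Tyms and 3495 for Ccne2. In CPM without that division, Mad2l1 ranged over 32.2 to 93.3, Tyms over 38.8 to 81.6 and Ccne2 over 12.2 to 36.3. Of the pair that loads the helicase, Cdt1 had 53.8 and Cdc6 17.3 CPM per kb, and their ranges did not overlap. Ccne1 had 51.6 and Ccne2 5.93, so per length Ccne1, whose change with DOX passed in no line, was the more abundant of the pair.

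Other genes of the same pathways, listed apart from the members, were called in both directions too. Of 31 other S-phase genes, 0 rose and 5 fell in WT pLV2 line 1, while line 2 had 1 rising and 7 falling. The TRIM24-KO line had 1 rising and 2 falling, the TRIM33-KO line 4 rising and 12 falling. Of 41 other G2/M genes, 3, 6, 4 and 6 rose and 3, 12, 3 and 15 fell in these lines, in the same order. Medians of both lists lay between -0.14 and -0.03 in the 4 lines. Of all genes tested, 16.1%, 26.5%, 16.3% and 36.4% were called in line 1, line 2, TRIM24-KO and TRIM33-KO. The counts of these lists and of those below were not tested against these shares. By themselves they do not show a movement particular to a pathway. Hjurp, the chaperone of CENP-A, rose in line 2 (0.52), TRIM24-KO (0.54) and TRIM33-KO (0.69, SE 0.087, adjusted p = 1.01e-05). G2e3, a ubiquitin ligase named for its G2/M expression, fell in line 1 (-0.47), line 2 (-0.93) and TRIM33-KO (-1.01, SE 0.082, adjusted p = 4.06e-08).

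Of 35 genes of other replication machinery, 2, 6, 5 and 8 rose and 5, 5, 3 and 7 fell in the same order of lines. Mcm9, a helicase of recombination repair outside the MCM ring, rose by 2.25, 2.14, 2.33 and 2.80 (SE 0.091, adjusted p = 2.99e-13) in these lines and by 1.62 (SE 0.20, adjusted p = 0.00433) in DUXBL-KO. Those values exceed the range of the 42 members. Cdc7, the kinase that fires licensed origins, fell in TRIM33-KO (-0.71, SE 0.11, adjusted p = 0.0001).

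Of 7 CDK inhibitors, 0 rose in any line and 0, 2, 1 and 2 fell in line 1, line 2, TRIM24-KO and TRIM33-KO. Cdkn1b, the inhibitor p27, was the named one in line 2 (-0.36, SE 0.08, adjusted p = 0.00302), TRIM24-KO (-0.43, SE 0.087, adjusted p = 0.00191) and TRIM33-KO (-0.47, SE 0.082, adjusted p = 0.000302). Cdkn1a, the p53 target p21, fell in DUXBL-KO (-0.67, SE 0.14, adjusted p = 0.0452). Of 8 G1 cyclins, kinases and RB family genes, 3, 1, 0 and 1 fell and 0 rose, with Ccnd2, cyclin D2, at -1.14 (SE 0.19, adjusted p = 0.000319) in line 1 and -1.07 (SE 0.15, adjusted p = 4.24e-05) in line 2. Of 14 other E2F and DREAM factors, 0, 4, 0 and 5 fell, and 1 rose, E2f7, a repressor of E2F targets, in TRIM24-KO (0.49, SE 0.10, adjusted p = 0.00278). These lists were chosen with earlier results known and support no direction of the members.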

How the data were processed

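Each of the 24 deposited tables holds raw read counts per gene and per repeat subfamily, as whole numbers, per the file headers. Reads were paired, 75 bp and strand-specific after rRNA depletion, per the labels' protocols. The submitters' processing notes name bcl2fastq 2.20.0, cutadapt 1.18, STAR 2.7.6a and the build mm10. The counting tool, its annotation and its strand setting are not given in the sources used here. Groups follow the titles, which 8 treatment tags contradict. IDs were matched to GENCODE M21.

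Counts were fitted with edgeR 4.0.16 in R 4.3.3 (quasi-likelihood, 2-sided) with TMM factors from genes, filterByExpr, and 1 mean per group. WT with DUXBL-KO (8 libraries) and the pLV2 lines (16) were fitted apart. Repeat subfamilies shared the dispersion fit, a choice made after counts over all genes had been seen. P-values were adjusted over 18060 and 18079 genes within each of 17 contrasts. CPM values use effective library sizes. SE is the fold change over the root of the test's F. Fits were tested on simulated data. DESeq2 1.42.0 and the alternatives of the closing section were also run. The members, classes and lists were chosen with earlier results of these data known. Per-library values were given for a fixed set of members (Ccne1, Ccne2, Ccna2, Ccnb1, Cdk1, Mcm5, Pcna, Top2a, Mki67, Cdc6), some by range, and for the 2 risen and 2 fallen with the smallest p in a contrast. The set moving in 4 lines, Wee1 and the motifs were chosen after seeing values.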

Additional observations from a re-analysis of the deposited data

Results flagged for a closer look

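The S-phase level minus the G2/M level (mean log2 CPM of each class) moved in opposite directions with DOX in lines fitted together. Every library with DOX was above those without in WT pLV2 line 2, by 0.12 on average, and in the TRIM33-KO line, by 0.11. Every library with DOX was below those without in WT pLV2 line 1, by -0.079. The difference between the lines was not tested.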

How the results depend on the processing

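Of the 3621 alternative values for 253 pairs of a gene and a comparison, 3159 kept direction and side of the threshold, 392 lost and 22 gained the call, and 48 changed sign. Of called values, Top2a (-0.069) and Mcm7 (0.043) changed sign for TRIM33-KO without DOX against WT pLV2 line 2 alone, and Cdc6 (0.20) for TRIM24-KO with DOX against line 1 alone. The other sign changes outside left-out libraries were Ccne1 in WT pLV2 line 2 (0.044 with RLE factors and DESeq2, 0.012 without CT010467.1, 0.062 with only the groups compared) and in TRIM33-KO (0.036 with RLE, 0.037 with DESeq2, 0.060 with only the groups compared), Ccnb1 in line 1 (0.014 without a filter, 0.012 without CT010467.1, 0.018 with only the groups compared) and Mki67 in DUXBL-KO (0.000914 without a filter). Counts of called members became 1 in WT, 1 in DUXBL-KO and 1 for DUXBL-KO against WT without DOX when no filter on low counts was used. DESeq2 gave 1 in DUXBL-KO and 8 in line 2. Only the groups compared gave 22 in line 1 and 5 in line 2, 2 members falling and 2 rising in all 4 lines, and RLE factors gave 2 rising. WT pLV2 line 1 alone gave 22 and 23 members for TRIM33-KO without and with DOX (40.7% and 42.9% of all genes), and line 2 alone 0 and 0 (1.51% and 3.40%). Genes alone in the fit, chosen after seeing the data, changed no count by over 1.5 times. With means in place of medians, the S-phase minus G2/M difference was 0.11 in WT, -0.0796 in line 1, 0.12 in line 2, 0.041 in TRIM24-KO and 0.11 in TRIM33-KO. The causes were not tested.

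There are only 2 replicate numbers, and the labels do not say what libraries with the same number share. With the replicate number as a block, the counts became 2 in WT (4.76%, with 5.14% of all genes), 4 in DUXBL-KO (9.52%, with 8.50%) and 1 for DUXBL-KO against WT without DOX. Deviations of replicate 1 correlated between groups at 0.29 to 0.64 in these lines and at -0.058 to 0.25 in the pLV2 lines.

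Leaving out each library gave 4 to 6 called members in WT pLV2 line 1, 8 to 10 in line 2, 6 to 12 in TRIM24-KO and 13 to 18 in TRIM33-KO. The share of all genes fell too, to 8.17% to 10%, 15.3% to 21%, 10.2% to 14% and 23.1% to 27.1%. It gave 15 to 20 for TRIM24-KO against WT without DOX, and for TRIM33-KO 7 to 12 without and 7 to 15 with DOX, with 28.7% to 39.4%, 10.8% to 23.8% and 14.1% to 25.4% of all genes. Members falling in all 4 lines numbered 1 to 4. The median S-phase minus G2/M difference ranged over 0.024 to 0.17 in DUXBL-KO, -0.16 to -0.083 in line 1, 0.036 to 0.13 in line 2, -0.037 to 0.055 in TRIM24-KO and 0.014 to 0.070 in TRIM33-KO. Uncalled members that changed sign ranged, in WT, over -0.047 to 0.13 (Ccnb1), -0.088 to 0.20 (Mcm5), -0.013 to 0.077 (Top2a), -0.11 to 0.076 (Mki67) and -0.060 to 0.34 (Cdc6), and Cdt1 had -0.32 to 0.12. In DUXBL-KO they ranged over -0.059 to 0.22 (Ccne1), -0.19 to 0.23 (Mcm5), -0.079 to 0.26 (Top2a) and -0.14 to 0.093 (Mki67), and Cdt1 had -0.28 to 0.13. In line 1 Ccnb1 ranged over -0.050 to 0.026, and in line 2 Ccne1 over -0.040 to 0.041 and Mcm5 over -0.060 to 0.25. In TRIM24-KO the ranges were -0.048 to 0.0028 (Ccnb1), -0.13 to 0.019 (Mcm5) and -0.13 to 0.075 (Mki67), and in TRIM33-KO Ccne1 had -0.082 to 0.074. In each such fit the lone library of a group is assumed to vary like the others. With 2 libraries a group, differences well above the standard errors given could still go uncalled.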
